A study of Mus musculus with 6 samples.

Results

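The liver transcripts examined here were those of 10 genes of the circadian clock and its PAR bZIP outputs: the PAR bZIP activators Hlf, Dbp and Tef, the D-box repressor Nfil3, the REV-ERB receptors Nr1d1 and Nr1d2, the activator Arntl (also called Bmal1) and the period genes Per1, Per2 and Per3. Members were taken as all probe sets annotated with 1 gene symbol that was 1 of these names, which gave 23 probe sets for 10 of the 18193 annotated genes. The arrays were whole-genome mouse arrays of Affymetrix, with 1 array for each of 3 KRAP-/- mice and 3 wild-type mice, and each KRAP-/- mouse was set against its own wild-type littermate, as KO1 with WT1, KO2 with WT2 and KO3 with WT3. The KRAP-/- allele lacks exons 11 to 16 and carries a neo selection marker in their place. KRAP is an actin-interacting protein of the bile canalicular border, and the question behind the comparison was which liver transcripts differ when it is lost. Both genotypes were on the C57BL6/J background, 32 weeks old and fed normal chow, in a facility lit for 12 h and dark for 12 h. The hour at which livers were taken and the sex of these mice are not given in the sources used here.

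The mammalian clock is a feedback loop of transcription. ARNTL with its partner CLOCK or NPAS2 binds E-boxes and drives the period and cryptochrome genes, whose proteins return to the nucleus and inhibit ARNTL and its partner. The same E-boxes drive Nr1d1 and Nr1d2, which repress Arntl through ROR elements, and they drive Dbp. DBP, TEF and HLF are leucine zipper activators named for a region rich in proline and acidic residues, and NFIL3, also called E4BP4, is a repressor that competes with them for D-boxes. In liver, the D-box activators carry time of day to detoxification enzymes, and the transcripts of Dbp and the period genes are known for their wide daily swing.

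The genes lie on chromosomes 1 (Per2), 4 (Per3), 7 (Dbp and Arntl), 11 (Hlf, Nr1d1 and Per1), 13 (Nfil3), 14 (Nr1d2) and 15 (Tef), and none lies on chromosome 2, which carries KRAP (now Itprid2). RefSeq promoter windows of GRCm38.p6, 250 bases before to 50 bases after a start site, were matched for 9 of the 10 genes with 12 windows, and Per2 had none. Motifs known from clock promoters were searched on both strands, and a match is given as a description of the letters alone. The windows below are those of the gene that passed the test (Hlf), of the 2 genes with a match to TNGGTCA whose KRAP-/- arrays all lay below the wild-type arrays (Nfil3 and Arntl), and of the only gene with D-boxes (Per3). This choice used the values, so it shows no link between a motif and a change. TNGGTCA also matched in Per3 and Tef, whose brightest probe sets had log2 fold changes of 0.68 and 0.06. Capitals mark the matches, which are TGACGTCA (cAMP element) in Hlf, TNGGTCA (searched for the ROR element) in Nfil3 and Arntl, and TTATGTAA (D-box) with TNGGTCA in Per3. TNGGTCA allows any base at its second position, so a match such as TTGGTCA or TCGGTCA need not be a ROR element.
Hlf, chr11:90390868-90391167, minus strand: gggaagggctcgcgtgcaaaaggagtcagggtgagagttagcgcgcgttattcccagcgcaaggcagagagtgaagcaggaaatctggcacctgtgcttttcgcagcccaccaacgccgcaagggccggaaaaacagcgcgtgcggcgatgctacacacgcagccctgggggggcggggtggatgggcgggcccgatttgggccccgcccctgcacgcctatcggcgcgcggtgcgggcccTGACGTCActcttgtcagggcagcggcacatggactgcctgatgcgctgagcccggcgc
Nfil3, chr13:52980990-52981289, minus strand: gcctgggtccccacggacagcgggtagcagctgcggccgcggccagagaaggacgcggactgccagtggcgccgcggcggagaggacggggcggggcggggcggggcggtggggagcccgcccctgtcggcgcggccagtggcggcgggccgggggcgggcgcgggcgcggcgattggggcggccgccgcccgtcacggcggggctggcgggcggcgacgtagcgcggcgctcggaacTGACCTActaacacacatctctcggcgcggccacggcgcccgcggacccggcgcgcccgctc
Arntl, chr7:113207261-113207560, plus strand: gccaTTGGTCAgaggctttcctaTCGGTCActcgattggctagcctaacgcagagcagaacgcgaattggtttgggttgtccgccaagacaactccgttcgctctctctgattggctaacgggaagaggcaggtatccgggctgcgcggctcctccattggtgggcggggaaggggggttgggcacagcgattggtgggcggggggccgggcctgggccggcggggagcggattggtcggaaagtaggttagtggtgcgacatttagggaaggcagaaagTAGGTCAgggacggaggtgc
Per3, chr4:151044616-151044915, minus strand: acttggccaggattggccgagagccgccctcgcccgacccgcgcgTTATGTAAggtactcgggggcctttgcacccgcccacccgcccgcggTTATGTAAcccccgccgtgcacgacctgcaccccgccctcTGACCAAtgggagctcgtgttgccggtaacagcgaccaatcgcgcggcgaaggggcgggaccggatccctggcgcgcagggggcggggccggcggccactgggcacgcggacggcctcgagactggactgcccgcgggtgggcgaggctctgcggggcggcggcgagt
In Hlf the cAMP element ended next to the start site, at positions -9 to -2. Nfil3 held 1 ROR element, TAGGTCA read on the opposite strand, at -12 to -6, and Arntl held 3, of which the last, TAGGTCA, lay at 31 to 37 within the transcribed part. Per3 held 2 D-boxes at -205 to -198 and -158 to -151 and, on the opposite strand, the ROR element TTGGTCA. Among all 32851 windows of the same length, CACGTG (E-box) was found in 7.15%, TTATGTAA in 0.938%, the other D-box TTACGTAA in 0.119%, TNGGTCA in 10.96% and TGACGTCA in 1.79%. Per1 had an E-box in 1 of its windows. Tef had an E-box in each of its windows and, in 1 of them, the letters TTGGTCA on the opposite strand at -219 to -213. The windows of Dbp, Nr1d1 and Nr1d2 matched none of these letters, which says nothing about elements elsewhere in the genes.

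Values are signals divided by the median signal of the array. A transcript was tested with limma on log2 signals, blocking on the littermate pair, over all 28531 probe sets with a mean of at least 0.5, and it was called at a Benjamini-Hochberg adjusted p below 0.05. Of the 23 clock probe sets, 21 were bright enough to be tested and 2 of Per3 were not. Of the 21, 1 was called higher in KRAP-/- liver, the brightest probe set of Hlf, where 0.431% of all probe sets were, and 0 were called lower by limma, where 0.978% of all were. At an unadjusted p below 0.05 there were 8 of 21, against 4244 of all 28531. With 1 probe set per gene, the brightest, 1 of 10 genes was higher (0.333% of all genes) and 0 of 10 were lower by limma (1.31% of all genes). Of these 10, 6 had an unadjusted p below 0.05, against 2074 of 13217 over all genes tested. The median log2 fold change of the 10 genes was 0.11, against -0.08 over all 13217 genes tested, and their median ratio of KRAP-/- to wild-type was 1.02, 0.925 and 1.15 in pairs 1, 2 and 3.

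**Figure D1:**
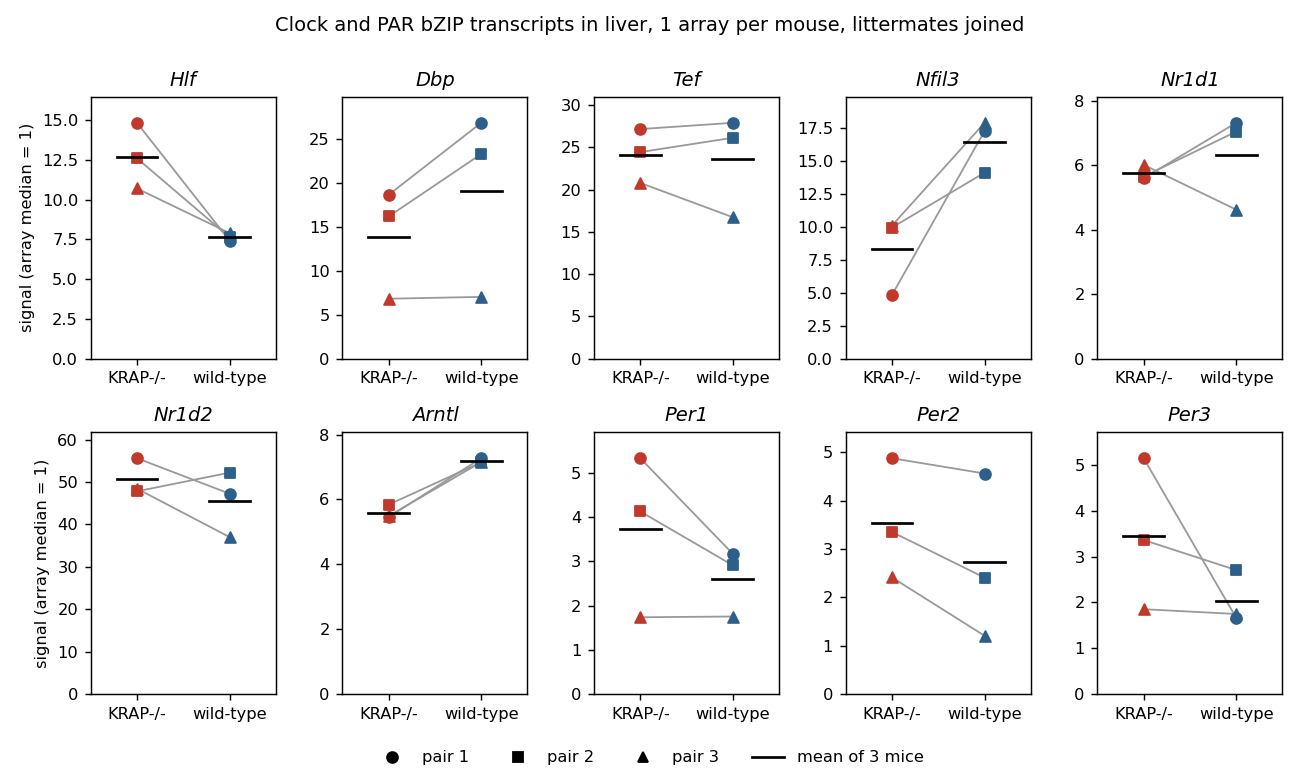
Signal (array median = 1, axes from 0) of the brightest probe set of each gene in 3 KRAP-/- mice (left, red) and 3 wild-type mice (right, blue), with littermates joined, a symbol for each pair and a bar at the mean of 3 mice. The 3 Hlf values of KRAP-/- mice lie at 10.7 to 14.8, above the wild-type values of 7.43 to 7.90, whereas the pair 3 triangles of Dbp lie at 6.81 and 7.02 in both genotypes, far below the other mice.

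Hlf, which encodes the PAR bZIP activator hepatic leukemia factor, was the only member called higher in KRAP-/- liver. Its brightest probe set, 1434736_at, read 14.8, 12.6 and 10.7 in the KRAP-/- mice of pairs 1, 2 and 3, against 7.43, 7.64 and 7.90 in their wild-type littermates. No KRAP-/- value overlapped a wild-type value, and the wild-type mice were close together whereas the KRAP-/- mice were spread. The mean was 12.7 ± 2.07 in KRAP-/- mice and 7.65 ± 0.238 in wild-type mice (SD, n = 3 each). The log2 fold change was 0.72 (SE 0.13, limma adjusted p = 0.038), and the ratio was 2.00, 1.65 and 1.36 in the 3 pairs. The call was lost without pair 1, where the log2 fold change was 0.58 (limma adjusted p = 0.128). It was also lost without the filter on dim probe sets (limma adjusted p = 0.398) and without the intensity trend in the test's variance (limma adjusted p = 0.423), settings under which no probe set of the whole array passed. A second Hlf probe set, 1434735_at, did not show the same separation. It read 7.13, 6.01 and 5.04 in KRAP-/- liver and 5.66, 3.89 and 5.97 in wild-type liver, so that the groups overlapped and pair 3 ran the other way (ratio 0.845, log2 fold change 0.24, SE 0.18, limma adjusted p = 0.574). Within KRAP-/- liver both Hlf probe sets were highest in pair 1 and lowest in pair 3.

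Dbp, the D-box activator whose liver transcript has a large daily swing, differed more between litters (here the littermate pairs) than between genotypes, which held 92.5% and 5.41% of the sum of squares of its log2 values at the brightest probe set. There were more litters than genotypes, and the median shares over all tested probe sets were 33.1% between litters and 21.0% between genotypes. That probe set, 1438211_s_at, is of a type that may bind related transcripts. It read 18.7, 16.2 and 6.81 in KRAP-/- mice and 26.9, 23.3 and 7.02 in wild-type mice. Both mice of pair 3 thus lay below every mouse of pairs 1 and 2. The KRAP-/- mouse was lower in each pair, at 0.694, 0.695 and 0.970 of its littermate, with a log2 fold change of -0.37 (SE 0.13, limma adjusted p = 0.226). The second probe set, 1418174_at, gave 11.8, 10.9 and 4.62 in KRAP-/- mice against 21.7, 20.5 and 4.66 in wild-type mice, which is a ratio of 0.544, 0.531 and 0.993. Its log2 fold change was -0.60 (SE 0.18, limma adjusted p = 0.157). In pairs 1 and 2 each probe set thus read lower in KRAP-/- liver by much the same ratio, and in pair 3 the littermates were nearly equal at a low level. Without pair 3 both Dbp probe sets were called lower by limma, at log2 fold changes of -0.53 (adjusted p = 0.032) and -0.90 (adjusted p = 0.0018), in a fit of 2 mice a genotype. Neither was called without pair 1 (limma adjusted p = 0.568 and 0.407) or without pair 2 (limma adjusted p = 0.536 and 0.354).

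Tef, the third PAR bZIP activator, gave values that depended on the probe set. The brightest, 1424175_at, read 27.2, 24.4 and 20.8 in KRAP-/- mice and 27.9, 26.1 and 16.7 in wild-type mice, with overlapping groups and a log2 fold change of 0.06 (SE 0.11, limma adjusted p = 0.843). The dimmer 1450184_s_at, whose type of probe set may bind related transcripts, read 2.86, 2.33 and 2.77 in KRAP-/- mice and 1.29, 1.54 and 1.89 in wild-type mice. Those groups did not overlap, but the log2 fold change of 0.76 (SE 0.23) did not pass (limma adjusted p = 0.159). The third, 1438033_at, stayed below the array median, at 0.758 to 0.951 in KRAP-/- liver and 0.428 to 0.903 in wild-type liver, with a log2 fold change of 0.54 (SE 0.46, limma adjusted p = 0.632).

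Nfil3, the repressor that competes with these activators, had the largest difference of the 21 probe sets. Its only probe set, 1418932_at, read 4.83, 9.95 and 10.1 in KRAP-/- mice and 17.3, 14.1 and 17.9 in wild-type mice, so that every KRAP-/- mouse was below every wild-type mouse. The means were 8.29 ± 3.004 in KRAP-/- and 16.4 ± 2.03 in wild-type mice (SD, n = 3 each), and the ratio was 0.279, 0.705 and 0.564. The log2 fold change of -1.06 (SE 0.22) missed the threshold at limma adjusted p = 0.054. It passed without pair 2 (limma adjusted p = 0.00022, log2 fold change -1.33), without pair 3 (limma adjusted p = 0.017, -1.17), on signals as deposited (limma adjusted p = 0.033), with a floor of 0.5 (limma adjusted p = 0.037), with a pseudocount of 0.25 (limma adjusted p = 0.046) and without probe sets of the cross-binding types (limma adjusted p = 0.046). It missed the threshold with quantile normalization (limma adjusted p = 0.077), a floor of 0.01 (limma adjusted p = 0.058), a minimum mean of 1 (limma adjusted p = 0.057), no pair block (limma adjusted p = 0.071), no filter (limma adjusted p = 0.464) and no intensity trend (limma adjusted p = 0.435). Without pair 1, whose KRAP-/- mouse was the lowest, the log2 fold change was -0.67 (limma adjusted p = 0.052).

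The REV-ERB receptors, which repress Arntl and Nfil3 through ROR elements, had no call and no common direction across the pairs. Nr1d1 at 1426464_at read 5.60, 5.65 and 6.01 in KRAP-/- mice and 7.32, 7.05 and 4.62 in wild-type mice. The KRAP-/- mice were thus within a narrow range inside that of the wild-type mice, and the ratio was 0.765 and 0.802 in pairs 1 and 2 but 1.30 in pair 3, with a log2 fold change of -0.11 (SE 0.17, limma adjusted p = 0.817). The brightest Nr1d2 probe set, 1416958_at, read 55.6, 47.8 and 48.4 in KRAP-/- mice and 47.3, 52.2 and 37.0 in wild-type mice, with a log2 fold change of 0.17 (SE 0.11, limma adjusted p = 0.521). The second, 1416959_at, had the same signs in the 3 pairs and a log2 fold change of 0.18 (SE 0.21, limma adjusted p = 0.737).

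Arntl, the activator that the receptors repress, had the smallest range between litters of the 21 probe sets, 1.03-fold. Its brightest probe set, 1425099_a_at, read 5.45, 5.84 and 5.49 in KRAP-/- mice and 7.27, 7.15 and 7.15 in wild-type mice, without overlap and with ratios of 0.750, 0.817 and 0.767. Genotypes held 96.9% of the sum of squares of its log2 values. The log2 fold change of -0.36 (SE 0.13) did not pass (limma adjusted p = 0.235), in a test that draws each variance towards that of probe sets of like brightness. A dim second probe set, 1457740_at, read 0.694, 1.21 and 1.72 in KRAP-/- mice and 1.60, 1.35 and 1.52 in wild-type mice, with overlap and a log2 fold change of -0.39 (SE 0.34, limma adjusted p = 0.634).

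The period genes, whose proteins inhibit ARNTL and its partner, had a larger share of the sum of squares between litters than between genotypes at most of their probe sets. The medians over all tested probe sets, 33.1% and 21.0%, stood in the same order. Per1 read 5.34, 4.13 and 1.74 in KRAP-/- mice and 3.17, 2.91 and 1.75 in wild-type mice, with ratios of 1.68, 1.42 and 0.990 and a log2 fold change of 0.41 (SE 0.20, limma adjusted p = 0.382). The littermates of pair 3 were nearly equal and lowest in both genotypes, as for Dbp, whereas in pairs 1 and 2 the KRAP-/- mouse was higher for Per1 and lower for Dbp. Per2 at its brightest probe set, 1417602_at, read 4.88, 3.35 and 2.41 in KRAP-/- mice and 4.56, 2.41 and 1.21 in wild-type mice. Here the ratio ran the other way over the pairs, at 1.07, 1.39 and 2.00, with a log2 fold change of 0.53 (SE 0.21, limma adjusted p = 0.297). The other 2 Per2 probe sets, 1457350_at and 1417603_at, had log2 fold changes of 0.38 and -0.28 (SE 0.34 each, limma adjusted p = 0.644 and 0.749).

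Per3 was read by 6 probe sets, of which 4 were tested and none was called. The brightest, 1458176_at, read 5.16, 3.37 and 1.85 in KRAP-/- mice and 1.67, 2.71 and 1.75 in wild-type mice, with ratios of 3.10, 1.24 and 1.06 and a log2 fold change of 0.68 (SE 0.29, limma adjusted p = 0.322). Without pair 1 its log2 fold change was 0.20. The next, 1441445_at, read 4.28, 2.53 and 1.54 in KRAP-/- mice and 3.44, 1.40 and 1.31 in wild-type mice, with a higher value in the KRAP-/- mouse of each pair (ratios 1.245, 1.802 and 1.18) and a log2 fold change of 0.47 (SE 0.22, limma adjusted p = 0.366). The remaining tested ones, 1421087_at and 1442243_at, had log2 fold changes of 0.12 and 0.29 (limma adjusted p = 0.854 and 0.688). The untested 1460662_at read 0.575, 0.718 and 0.111 in KRAP-/- mice and 0.703, 0.653 and 0.151 in wild-type mice, again lowest in pair 3 of both genotypes, and 1421086_at read at most 0.448 on any array.

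The plot of ratios by pair shows how far the shifts agreed. The KRAP-/- mouse was higher in all 3 pairs at 7 of the 21 tested probe sets, where 15.3% of all tested probe sets were, and lower in all 3 at 4 of 21, where 22.4% of all were. These 11 were 1 of Hlf, 2 of Tef, 1 of Per2, 3 of Per3, 2 of Dbp, 1 of Nfil3 and 1 of Arntl, and the other 10 had mixed directions. Every KRAP-/- array was above every wild-type array at 2 of 21 (Hlf 1434736_at and Tef 1450184_s_at), against 7.8% of all tested probe sets, and below at 2 of 21 (Nfil3 and Arntl 1425099_a_at), against 12.3%. By the criterion of a ratio of at least 1.5-fold in each of the 3 pairs, 0 of 23 clock probe sets were higher and 0 were lower, where 2.3% and 2.88% of all 45037 probe sets were. Hlf 1434736_at and Tef 1450184_s_at each reached 1.5-fold in pairs 1 and 2 and fell short in pair 3 at 1.36 and 1.46, and Nfil3 fell short in pair 2.

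**Figure D2:**
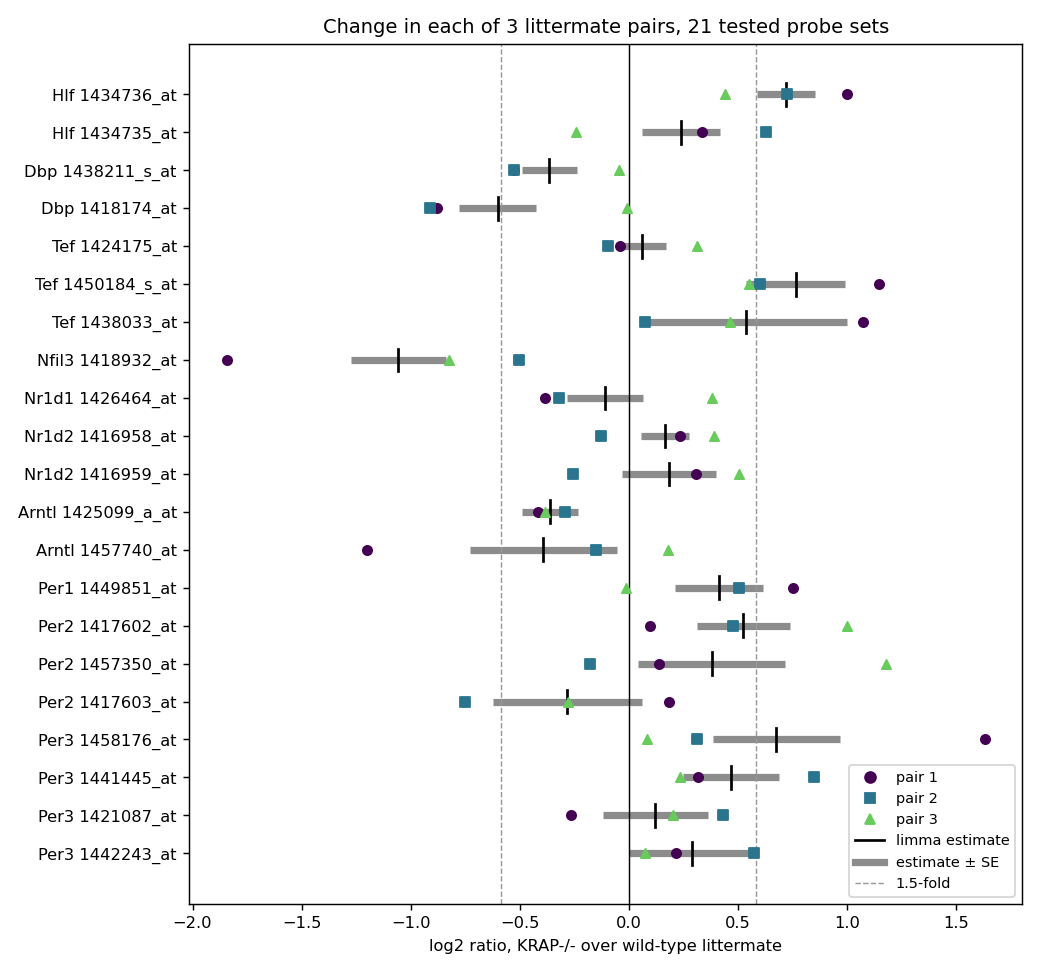
Log2 ratio of each KRAP-/- mouse to its wild-type littermate (x axis) for the 21 tested probe sets (rows), with a symbol for each pair, the limma estimate as a black tick, its SE as a grey bar and dashed lines at 1.5-fold. No row has all 3 symbols outside the dashed lines on 1 side, and 10 rows have symbols on both sides of 0.

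The littermate pairs differed widely from each other at some of the clock genes. What else the mice of a pair shared, such as the hour of collection, is not given, so it cannot be told apart from the litter. The fold range between the highest and the lowest mean of a littermate pair had a median of 1.24 over all tested probe sets and a 90th percentile of 2.05. Of the 21 clock probe sets, 7, of the 4 genes Dbp, Per1, Per2 and Per3, lay above that percentile. The range was 3.24-fold and 3.45-fold for the Dbp probe sets, 2.36-fold for Per1, 2.77-fold and 2.14-fold for Per2 (1417602_at and 1457350_at) and 2.70-fold and 2.29-fold for Per3 (1441445_at and 1421087_at). The share of the sum of squares of log2 signals that lay between pairs was 92.5% and 83.4% for Dbp, 80.7% for Per1, 77.7% for Per2 at its brightest and 86.5% for Tef at its brightest, against a median of 33.1% over all tested probe sets. These are the highest shares among the brightest probe sets and the second of Dbp. At the other end were Arntl at 1.10%, Hlf at 4.07% and Nfil3 at 13.1%, and the median over the 10 genes at their brightest probe set was 39.2%, against 33.4% over all genes tested. Both arrays of pair 3 were the lowest of their genotype at 8 of the 21 (Dbp, Per1, Per2, Per3 and Tef), against 12.7% of all, and the 3 pairs stood in the same order in both genotypes at 7 of 21, against 18.1% of all. In 6 of these 7, of 5 genes, the order was pair 1, then pair 2, then pair 3. The share of all probe sets with that order was not counted, so this number has nothing to be set against. These counts were chosen after the values had been seen and have no test of their own. The F test of the pair terms in the same limma fit, added after the data were seen, called 2 of 28531 probe sets (0.00701%), and 1 of them was Dbp 1438211_s_at (limma adjusted p = 0.037). The other, 1431213_a_at, had no single gene symbol in the annotation used here.

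**Figure D3:**
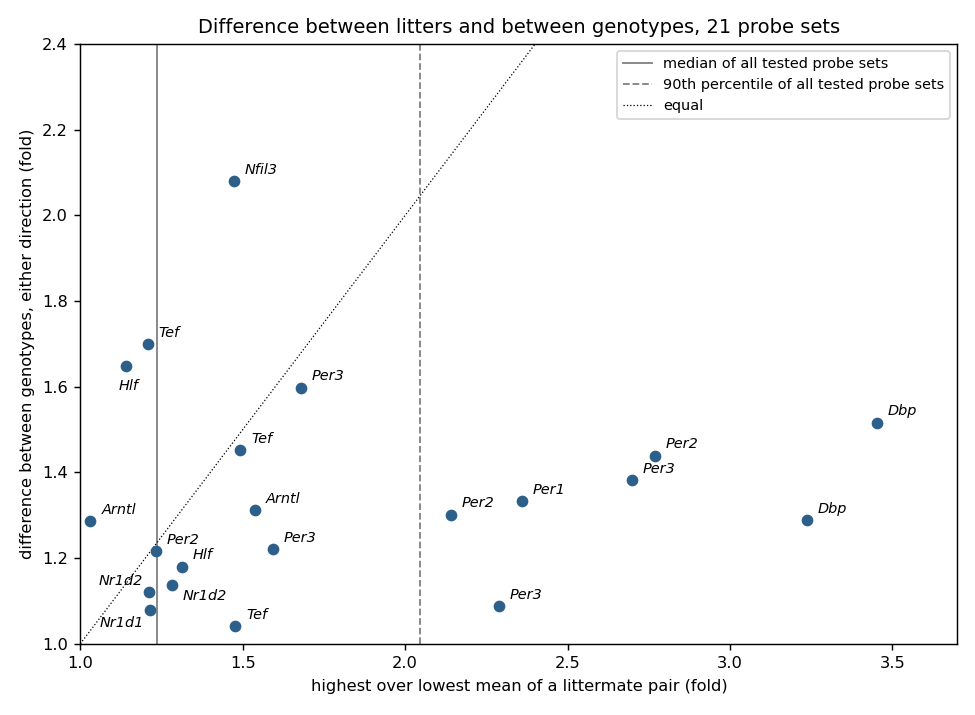
Fold range between the highest and the lowest mean of the 3 littermate pairs (x axis) and fold difference between KRAP-/- and wild-type in either direction (y axis) for the 21 tested probe sets, with grey lines at the median and the 90th percentile of the x values of all tested probe sets and a dotted line where both are equal. The 7 points of Dbp, Per1, Per2 and Per3 lie right of the 90th percentile of 2.05, and Nfil3, the brightest probe sets of Hlf and Arntl and a dimmer one of Tef are among those above the dotted line.

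Array quality was compared with these values. The array medians were 20.2 to 23.4 in KRAP-/- and 19.1 to 22.6 in wild-type mice, and the beta-actin control, read as its 3′ over its 5′ probe set, was 2.28 to 2.32 in KRAP-/- and 2.01 to 2.65 in wild-type mice. The same control ratio for Gapdh was lowest in pair 3 of both genotypes, at 0.709 in KRAP-/- (0.771 and 0.795 in the others) and 0.729 in wild-type mice (0.741 and 0.778), and its part in the values of pair 3 was not tested. KRAP itself checked nothing, since the sources used here do not place its probe set inside or outside the deleted exons. Its mean signal was 20.96 ± 0.850 in KRAP-/- mice and 23.6 ± 1.15 in wild-type mice (SD, n = 3 each, limma adjusted p = 0.442).

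Cell markers of the whole liver were set beside these values, since fewer cells of a type and less RNA per cell cannot be told apart in bulk tissue. The 4 hepatocyte markers measured of 5 summed to 2566 to 2887 in KRAP-/- and 2632 to 2709 in wild-type mice, with 0 called by limma. The 4 Kupffer cell and macrophage markers summed to 37.1 to 37.7 in KRAP-/- and 49.2 to 60.4 in wild-type mice. Clec4f, which defines Kupffer cells, was called lower (log2 fold change -0.54, limma adjusted p = 0.025), though not on signals as deposited (limma adjusted p = 0.071). The 4 lymphocyte markers summed to 7.72 to 8.88 in KRAP-/- and 10.8 to 13.6 in wild-type mice, most of it Ptprc, a marker of all leukocytes. Cd3e, a T cell marker, was too dim for testing and read 0.422, 0.312 and 0.394 in KRAP-/- mice and 0.325, 0.194 and 0.238 in wild-type mice. Adipoq, the 1 adipocyte marker measured of 3, read 0.0318 to 0.253 in KRAP-/- and 0.444 to 2.20 in wild-type mice. The lowest Adipoq value lay under the floor of 0.1. These macrophage, lymphocyte and adipocyte sums were separate between genotypes, as were Hlf, Nfil3 and Arntl at their brightest probe sets, and the part of the sums in those genes was not tested. Of all tested probe sets, 7.8% had every KRAP-/- array above every wild-type array and 12.3% had every one below. The sums of 4 cholangiocyte markers (3.82 to 5.43 in KRAP-/-, 5.16 to 6.35 in wild-type), 4 endothelial markers (42.8 to 45.7 in KRAP-/-, 41.6 to 51.9 in wild-type) and 2 of 3 erythroid markers (7.18 to 11.3 in KRAP-/-, 8.41 to 10.3 in wild-type) overlapped. That of 4 stellate markers was 180 to 188 in KRAP-/- and 153 to 177 in wild-type mice, without overlap. Most of the stellate sum was the signal of Dcn and Reln, while Lrat, which defines these cells, read 4.67, 6.56 and 6.09 in KRAP-/- mice and 9.14, 8.72 and 9.14 in wild-type mice (log2 fold change -0.66, limma adjusted p = 0.070).

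The other genes of the clock loop were read from a list of 17, of which 15 were measured and tested and 0 were called by limma. At an unadjusted p below 0.05 there were 3 of 15, against 2074 of 13217 over all genes tested. At the brightest probe set, 6 had a log2 fold change above 0 and 9 below, where 5009 of all genes tested were above and 8208 below. The median of the list was -0.02, against -0.08 over all genes tested. The largest were those of Timeless, related to a clock gene of flies, at 1.30 (SE 0.59, limma adjusted p = 0.353), and of Npas2, the alternative partner of ARNTL, at -0.71 (SE 0.28, limma adjusted p = 0.281). Timeless had 1 wild-type value far below the other mice, with 1.56, 1.41 and 1.26 in KRAP-/- mice and 1.03, 0.147 and 1.23 in wild-type mice, and without that pair its log2 fold change was 0.31. Npas2 read 0.998, 1.69 and 1.38 in KRAP-/- mice and 2.22, 1.76 and 2.61 in wild-type mice, without overlap. Clock itself had 11.4, 13.9 and 11.9 in KRAP-/- mice and 12.3, 12.01 and 14.3 in wild-type mice, with overlap.

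Further clock genes named after their values were seen were Usp2, Ciart and Bhlhe40. Usp2, a ubiquitin protease with a daily rhythm in liver, read 8.49, 6.19 and 3.86 in KRAP-/- mice and 5.42, 5.03 and 3.34 in wild-type mice. Ciart, a repressor of the loop, read 1.08, 0.760 and 0.0935 in KRAP-/- mice and 1.84, 0.696 and 0.0509 in wild-type mice, and both values of pair 3 lay under the floor of 0.1 used in the test, so that they have no order. Both genes were thus highest in pair 1 and lowest in pair 3 in both genotypes, the order seen for Dbp, Per1 and the brightest Per2 probe set. Cry2 also stood in that order, but most other genes of the list did not, among them Clock, Npas2, Cry1 and Timeless. Bhlhe40, which encodes the repressor DEC1, read 26.3, 14.9 and 17.0 in KRAP-/- mice and 41.0, 28.1 and 17.5 in wild-type mice, with the littermates of pair 3 nearly equal as for Dbp (log2 fold change -0.53, limma adjusted p = 0.147). Without pair 3 it was -0.78 (limma adjusted p = 0.0035). It was not called without pair 1 or without pair 2 (limma adjusted p = 0.292 and 0.375).

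Known target genes of the PAR bZIP activators in liver, most of them enzymes of drug and haem metabolism, gave 12 tested of 15, with 0 called by limma. An unadjusted p below 0.05 was found for 3 of the 12, against 2074 of 13217 over all genes tested. Of the 12, 4 had log2 fold changes above 0 and 8 below, where 5009 of all genes tested were above and 8208 below. The median of the 12 was -0.17, against -0.08 over all genes. Ces2a, a carboxylesterase, had the largest, with 97.6, 103 and 106 in KRAP-/- mice and 158, 126 and 132 in wild-type mice and no overlap (log2 fold change -0.43, SE 0.10, limma adjusted p = 0.077). Cyp2b10, a drug-metabolizing cytochrome P450, followed at -0.40 (SE 0.22, limma adjusted p = 0.444), with 18.7, 15.9 and 25.0 in KRAP-/- mice and 31.9, 29.1 and 18.2 in wild-type mice. It was lower in KRAP-/- liver in pairs 1 and 2 and higher in pair 3. Without pair 3 both were called lower by limma, Ces2a at -0.50 (adjusted p = 0.036) and Cyp2b10 at -0.83 (adjusted p = 0.0019). Neither was called without pair 1 (limma adjusted p = 0.201 for Ces2a and 0.790 for Cyp2b10) or without pair 2 (limma adjusted p = 0.051 and 0.830).

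Other transcripts that the clock drives in liver gave 19 tested of 20, with 0 called by limma, 8 at an unadjusted p below 0.05 (2074 of 13217 over all genes) and a median log2 fold change of -0.04. Rgs16, a G-protein regulator with a daily rhythm in liver, read 5.87, 11.02 and 26.1 in KRAP-/- mice and 8.63, 3.16 and 7.20 in wild-type mice. It was higher in KRAP-/- liver in pairs 2 and 3 and lower in pair 1 (log2 fold change 1.03, SE 0.39, limma adjusted p = 0.264). Without pair 1, the pair that ran the other way, it was 1.83 (limma adjusted p = 2.6e-05). It was not called without pair 2 or without pair 3 (limma adjusted p = 0.401 and 0.460). E2f8, a cell cycle repressor, read 1.09, 1.37 and 1.20 in KRAP-/- mice and 1.52, 1.83 and 4.18 in wild-type mice, without overlap (log2 fold change -0.90, SE 0.32, limma adjusted p = 0.234). Rhythmic transcripts that answer to temperature, serum or glucocorticoids gave 15 tested of 18, with 0 called by limma, 6 at an unadjusted p below 0.05 (2074 of 13217 over all genes) and a median of 0.13. The largest were Mt2, a metallothionein, at -0.78 (SE 0.30, limma adjusted p = 0.274), and Cirbp, a cold-inducible RNA-binding protein, at 0.58 (SE 0.16, limma adjusted p = 0.134). Mt2 read 69.2, 49.2 and 61.2 in KRAP-/- mice and 137, 166 and 46.7 in wild-type mice, and the direction in pair 3 was opposite to that in pairs 1 and 2. Without pair 3 the log2 fold change of Mt2 was -1.37 (limma adjusted p = 0.00025). It was not called without pair 1 or without pair 2 (limma adjusted p = 0.392 and 0.604). Cirbp read 5.94, 6.56 and 5.76 in KRAP-/- mice and 5.001, 3.79 and 3.58 in wild-type mice, without overlap.

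**Figure D4:**
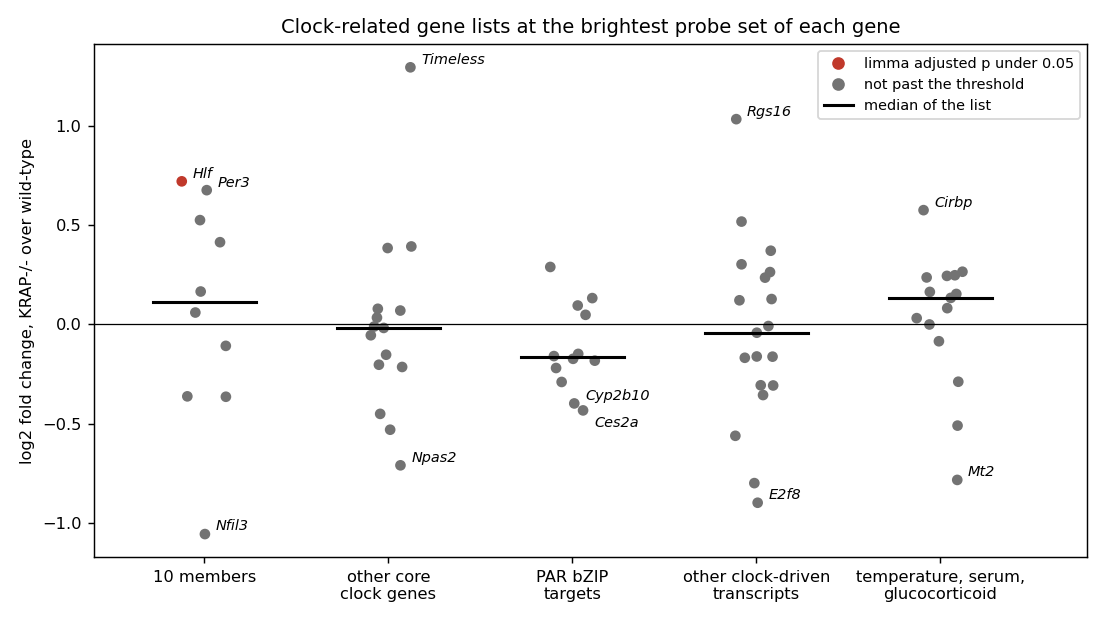
Log2 fold change of KRAP-/- over wild-type liver (y axis) at the brightest probe set of each gene, for the 10 members and 4 lists of clock-related genes (x axis), with the gene called by limma in red, the others in grey and a bar at the median of each list. Hlf at 0.72 is the only red point, and the medians lie between -0.17 for the PAR bZIP targets and 0.13 for the temperature, serum and glucocorticoid list.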

How the data were processed

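Liver RNA (2 ug) of 3 KRAP-/- and 3 wild-type mice was read on 1 Affymetrix whole-genome mouse array per mouse. The authors deposited linear intensities made with GCOS, per the submitters' processing notes, neither log transformed nor scaled between arrays. The number of arrays limits the precision of every value.

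Intensities were scaled to an array median of 1, 64 control probe sets were left out, a floor of 0.1 was set and log2 was taken. Of 45037 probe sets, the 28531 whose mean reached 0.5 entered the limma fit (version 3.58.1, R 4.3.3) of genotype and littermate pair, with a variance trend over intensity and Benjamini-Hochberg adjustment. Folds of transcripts near the floor are understated. The fit was tested on simulated data. Each mouse is 1 replicate. The pairing rests on the statement that numbered mice were littermates, since littermates' deviations from the genotype means correlated at only 0.043, 0.0095 and -0.012.

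Symbols came from the platform annotation, in which 34945 probe sets had 1 gene symbol, 932 several and 9160 none, and only those with 1 were named. The brightest probe set (highest mean over the 6 arrays) stands for a gene. Members, lists and alternatives were chosen with earlier results of these data known. All members are named, and from each list the genes past the threshold or otherwise the 2 with the largest change. Genes stated as named after their values were seen, and Clock, the partner of ARNTL, were added to these. Listed genes without such a probe set, and other tissues of the study, were not analysed here. Promoters were searched and figures drawn with Python 3.11.15 (pandas 2.3.3, matplotlib 3.10.9, numpy 2.4.6). The alternatives were signals as deposited, quantile normalization, floors of 0.01 and 0.5, a pseudocount of 0.25, a minimum mean of 1, no filter, no pair block, no intensity trend, no probe sets of the types _x_at and _s_at, and leaving out each pair.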

Additional observations from a re-analysis of the deposited data

How the results depend on the processing

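With 3 mice a genotype, a member that missed the threshold is not shown to be alike in both genotypes. The number of clock probe sets called lower by limma was 1, Nfil3, on signals as deposited, with a floor of 0.5, with a pseudocount of 0.25 and without probe sets of the types _x_at and _s_at, against 0 as reported. Without the filter on dim probe sets and without the intensity trend, 0 of all probe sets were called higher and 0 lower by limma, and so 0 clock probe sets higher, although 4551 and 3089 had an unadjusted p below 0.05. Leaving out each pair in turn gave 0 to 1 clock probe sets higher (0 without pair 1) and 0 to 3 lower (3 without pair 3, Nfil3 and both of Dbp), and 110 to 338 higher and 267 to 522 lower over all probe sets, the highest without pair 3. The cause was not tested.

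Log2 fold changes that changed sign when a pair was left out were those of Tef 1424175_at (-0.068 to 0.14), Nr1d1 (-0.35 to 0.030), Arntl 1457740_at (-0.68 to 0.014), Per2 1457350_at (-0.018 to 0.66), Per3 1421087_at (-0.033 to 0.32) and Ciart (-0.39 to 0.064). With a floor of 0.01, which all Ciart values lie above, the log2 fold change of Ciart was 0.078. None of these was called. The median of the 10 members was between -0.0070 and 0.22, and 9 to 11 clock probe sets had 1 direction over the 3 pairs in the settings where this was counted. Without the pair block 1 clock probe set was called higher, Hlf with limma adjusted p = 0.030, and 0 lower, Nfil3 with limma adjusted p = 0.071, so that the block changed no call of a member.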
